A study of Mus musculus with 27 samples.

Results

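The genes described here encode the contractile apparatus of smooth muscle, and they were measured in hepatic stellate cells (HSCs), liver mesenchymal cells that store retinoid. A list of 10 genes was followed, namely Acta2, Tagln, Cnn1, Cnn2, Myl9, Myh11, Tpm1, Tpm2, Lmod1 and Des, out of 53379 genes in the count table. The members were taken by name, and all 10 were found under a single Ensembl identifier and passed the filter on low counts that left 18758 genes for testing. RNA of HSCs from male Balb/c mice was sequenced in 27 libraries of 7 groups after liver perfusion and sorting of cells by their ultraviolet (retinoid) fluorescence, with no culture step. Healthy mice of 10 to 12 weeks received no injection, so that no group controlled for the mineral oil in which the toxin was given (n = 4). Carbon tetrachloride (CCl4), which poisons hepatocytes, was injected into the peritoneum at 0.5 µL per g of body weight in all other mice. Acute groups were injected once at 10 to 12 weeks of age, and HSCs were collected 24 h later (n = 3), 72 h later (n = 4) or at 7 d (n = 4). Chronic groups were injected semi-weekly for 4 weeks from 8 to 10 weeks of age, and HSCs were collected 24 h, 72 h or 14 d after this course (n = 4 each). The sort keeps cells that still hold retinoid. Per the methods, repeats were separate experiments.

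Contraction of smooth muscle rests on thin filaments of actin that slide along filaments of myosin. Tropomyosins, calponin and transgelin sit on the thin filament, leiomodin nucleates it, and phosphorylation of the regulatory light chain by myosin light chain kinase switches the motor on. Most of these genes are targets of serum response factor (SRF), which binds the CArG box together with myocardin or its relatives. In the liver, smooth muscle alpha-actin is the classical marker of the HSC that has turned into a myofibroblast, and desmin marks rodent HSCs already at rest.

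Windows of 300 bases around the annotated start (250 bases before, 50 after) were available from RefSeq on GRCm38.p6 for 8 of the 10 members. Tagln and Myh11 had no entry. Those of 4 genes are shown because they hold, or differ in, the motif that links this family: Acta2 and its CArG-like elements, Myl9 and Cnn2 with a full CArG box, and Cnn1, the close relative of Cnn2, with neither. They lie on chr19:34255324-34255623 (minus strand), chr2:156775214-156775513 (plus), chr10:79988350-79988649 (plus) and chr9:22099003-22099302 (plus). Each is written 5′ to 3′ on the strand of its gene, and capitals mark a match to the CArG box with at most 1 letter of its A/T core replaced, or to CATTCC, the element of TEAD factors, on either strand.
Acta2: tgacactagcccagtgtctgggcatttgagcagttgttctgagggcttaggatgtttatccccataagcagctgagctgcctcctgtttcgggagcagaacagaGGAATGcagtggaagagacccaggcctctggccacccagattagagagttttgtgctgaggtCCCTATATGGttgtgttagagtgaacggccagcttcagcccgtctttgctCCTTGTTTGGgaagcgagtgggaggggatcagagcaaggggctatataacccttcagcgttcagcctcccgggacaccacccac
Myl9: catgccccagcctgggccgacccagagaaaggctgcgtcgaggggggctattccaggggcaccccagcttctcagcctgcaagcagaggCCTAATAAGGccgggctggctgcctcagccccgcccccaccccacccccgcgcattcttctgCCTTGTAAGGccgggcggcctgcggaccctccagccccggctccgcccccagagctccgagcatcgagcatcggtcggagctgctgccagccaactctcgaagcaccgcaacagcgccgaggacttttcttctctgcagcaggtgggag
Cnn2: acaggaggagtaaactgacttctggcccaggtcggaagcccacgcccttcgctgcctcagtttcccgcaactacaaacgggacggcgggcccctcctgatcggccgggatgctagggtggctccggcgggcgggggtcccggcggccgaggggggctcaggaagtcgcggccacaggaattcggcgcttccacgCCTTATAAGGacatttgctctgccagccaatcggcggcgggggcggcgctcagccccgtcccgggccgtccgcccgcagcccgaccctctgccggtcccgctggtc
Cnn1: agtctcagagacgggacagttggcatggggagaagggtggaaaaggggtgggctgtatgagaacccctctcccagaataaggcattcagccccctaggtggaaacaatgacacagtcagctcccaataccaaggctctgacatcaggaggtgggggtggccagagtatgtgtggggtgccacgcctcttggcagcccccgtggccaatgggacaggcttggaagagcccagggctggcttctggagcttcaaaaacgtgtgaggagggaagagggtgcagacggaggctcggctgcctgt

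A full CArG box, which reads as the same motif on both strands, was found in 2 of the 8 windows, those of Myl9 and Cnn2, and in 1.63% of the 32817 windows of all genes. With 1 other letter allowed in the core, 3 of the 8 windows matched, against 9.99% of all windows, and Acta2 joined with 2 elements that begin 84 and 34 bases before its start. CATTCC or its reverse complement was found in Acta2, Lmod1 and Tpm1, that is 3 of 8 windows against 14.7% of all. None of the CATTCC matches overlapped a CArG match. These are matches of letters in a short window and say nothing about the windows in which none was found.

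The total count per library lay between 6.31 M and 13.1 M. The libraries fell into 2 depth classes, with 8 of lower depth (the entire chronic 14 d group, and the first and second replicate of both chronic 24 h and chronic 72 h) and 19 of higher depth. The summed level of 8 stellate cell markers was 8870 to 10700 CPM (the count of a gene per 1000000 counts of its library) in healthy libraries, between 4010 and 7820 CPM in all others, and no marker was at 0 throughout any group. The summed level of 8 markers of vascular smooth muscle and pericytes, cells that also carry this apparatus, was 4080 to 5790 CPM in healthy and 1100 to 1460 CPM in chronic 24 h libraries. Singly, 3 of the 7 that could be tested were called lower there (Rgs5, Kcnj8 and Abcc9) and none higher, by the rule given below. The median log2 fold change over the 7 was -0.36, where 8.11% of all genes were called lower and 11.2% higher. Of these markers Higd1b was at 0 in every library and Pln, a gene of contractile smooth muscle, stayed at or below 2.42 CPM. Portal fibroblast markers (6 genes) summed to 114 to 203 CPM in healthy, 54.4 to 95.3 CPM in acute 24 h and 286 to 318 CPM in chronic 24 h libraries. Mesothelial markers (6 genes) summed to 5.88 to 14.8 CPM in healthy and 102 to 150 CPM in chronic 72 h libraries, with Msln at 0 throughout acute 24 h and acute 72 h and Krt19 at 0 throughout acute 72 h. Singly, 1 of the 5 mesothelial markers that could be tested, Wt1, was called higher at chronic 72 h than in healthy libraries, where 7.88% of all genes were. Macrophage markers (7 genes) summed to 92.3 to 375 CPM in healthy and up to 1840 CPM in acute 7 d libraries, where 6 of them and 9.23% of all genes were called higher than in healthy. Sinusoidal endothelial markers (6 genes) summed to 25.3 to 465 CPM over all libraries. In bulk RNA, a change in the share of cells that express a gene and a change in its RNA per cell cannot be told apart.

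**Figure D1:**
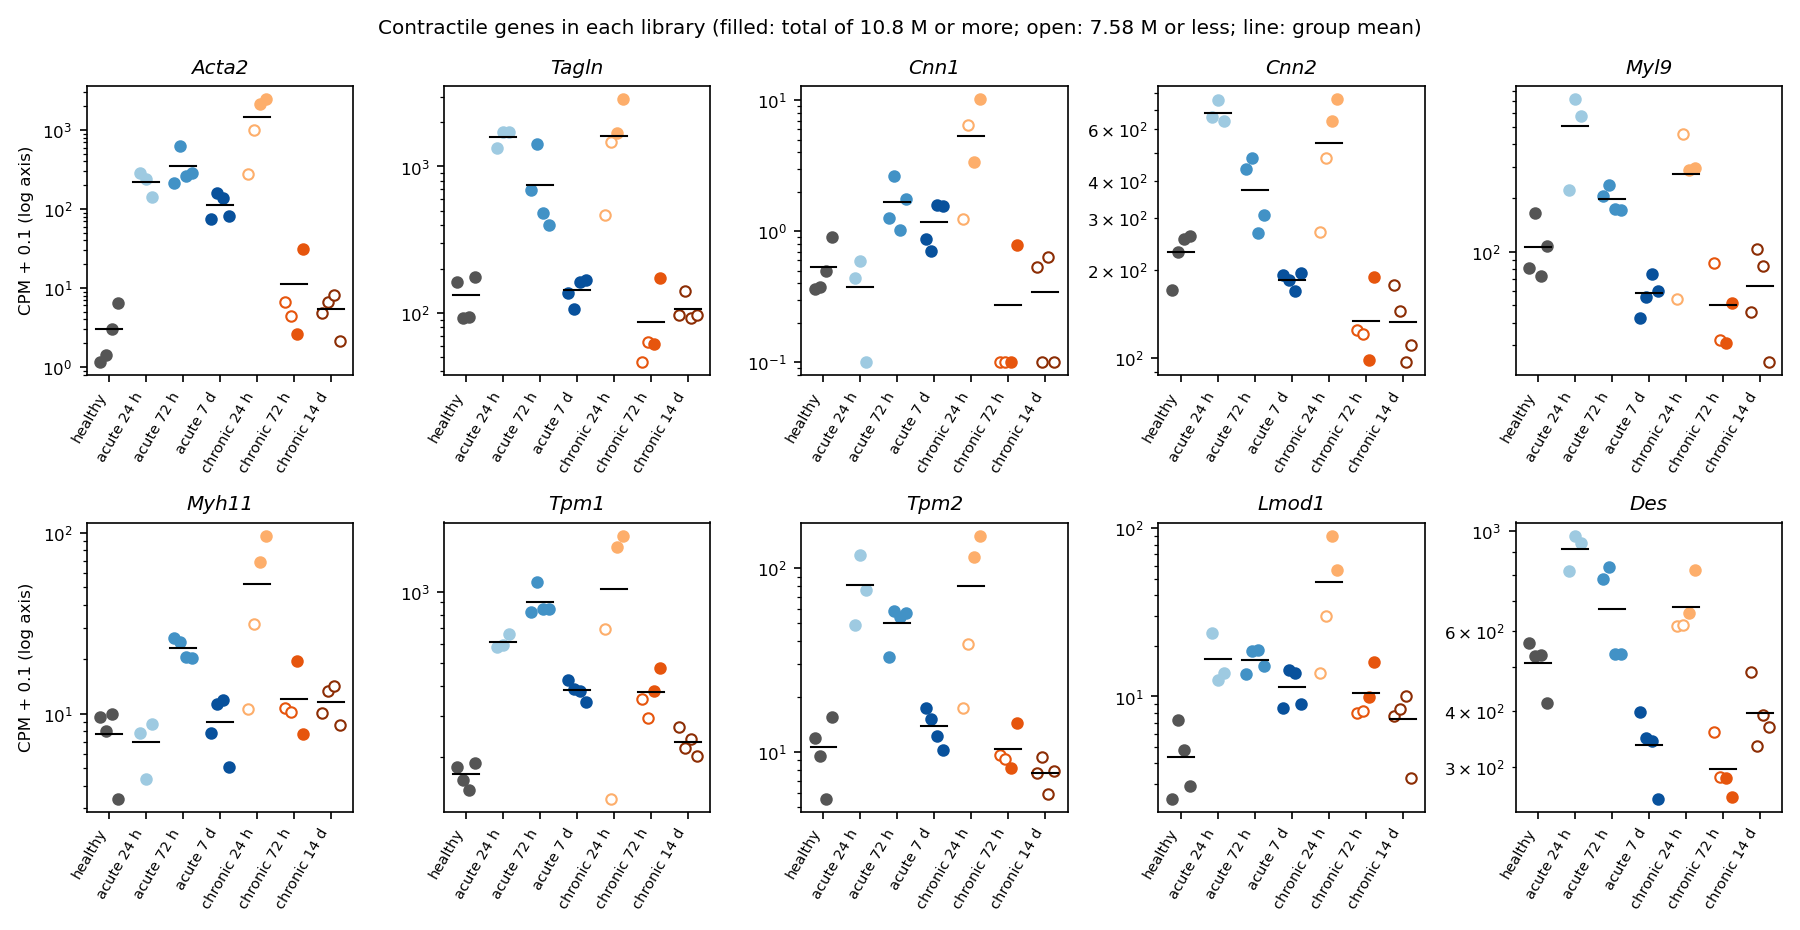
Level of the 10 contractile genes in each of the 27 libraries, as CPM plus 0.1 on a log axis that is scaled for each gene, by group on the horizontal axis. Filled points are libraries of higher depth, open points those of lower depth, and the line is the group mean. Acta2 stands at 1.05 to 6.44 CPM in healthy and at 277 to 2460 CPM in chronic 24 h libraries, and Des stays between 255 and 976 CPM throughout.

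Acta2 (ENSMUSG00000035783, chromosome 19, 34241090 to 34255590, minus strand), which encodes smooth muscle alpha-actin, had the widest range, as a ratio of its highest to its lowest library, of the 9 genes with a count in every library. It read 1.05, 1.30, 2.94 and 6.44 CPM in the healthy libraries. After a single injection it read 285, 237 and 141 CPM at 24 h, 215, 631, 263 and 283 CPM at 72 h, and 73.9, 158, 136 and 81.4 CPM at 7 d. After the chronic course it read 277, 1010, 2120 and 2460 CPM at 24 h, then 6.61, 4.29, 2.54 and 31.4 CPM at 72 h, and 4.73, 6.50, 8.07 and 2.06 CPM at 14 d. Every acute library therefore lay above every healthy one, and the chronic 72 h and chronic 14 d libraries overlapped with the healthy ones. Ordered by mean, Acta2 was highest in chronic 24 h (1470 CPM ± 1000 SD, n = 4), followed by acute 72 h (348 CPM), acute 24 h (221 CPM), acute 7 d (112 CPM), chronic 72 h (11.2 CPM), chronic 14 d (5.34 CPM) and healthy (2.93 CPM). Of the neighbours in this order, chronic 24 h and acute 72 h differed (log2 fold change 2.18, SE 0.71, adjusted p 0.0455, edgeR), as did chronic 72 h and acute 7 d (log2 fold change -3.29, SE 0.75, adjusted p 0.0425, edgeR), and the other neighbours were not called. A gene was called where its Benjamini-Hochberg adjusted p in edgeR's quasi-likelihood test, adjusted over all genes tested, was below 0.05 and its change above 2-fold. Acta2 was the 1 member called lower in chronic 72 h than in acute 7 d libraries, where 0.267% of all genes were. In chronic 24 h against acute 72 h, where 3.97% of all genes were called higher, Acta2 and Lmod1 were the members called higher. In chronic 24 h, the lower-depth libraries (277 and 1010 CPM) stood below those of higher depth (mean 2290 CPM), and hepatocyte markers summed to 1740 and 1030 CPM in the former and to 399 and 647 CPM in the latter. Macrophage markers summed to 699 and 937 CPM in the former and to 179 and 298 CPM in the latter. The part of depth and of RNA from these cells in this spread was not tested.

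The genes that decorate the thin filament fell into a widely expressed and a nearly silent set. Tagln (ENSMUSG00000032085, chromosome 9, 45929619 to 45936058), whose product transgelin binds actin in smooth muscle, read 163, 92.4, 94.2 and 177 CPM in healthy, 1330, 1720 and 1730 CPM in acute 24 h, and 693, 1420, 480 and 398 CPM in acute 72 h libraries. It was back to 106 to 167 CPM at acute 7 d, which overlapped with the healthy libraries. After the chronic course it read 469, 1460, 1680 and 2880 CPM at 24 h, 46.1, 63.6, 61.6 and 173 CPM at 72 h, and 92.2 to 141 CPM at 14 d. No difference in Tagln was detectable between the 24 h groups (log2 fold change 0.01, 95% interval -1.01 to 1.03). Of the 1988 exonic bases of Tagln, 1349 lie opposite exons of Gm48529 or Pcsk7 on the other strand, and the strand used in counting is not given in the sources used here. Gm48529 had group means between 17.0 and 70.8 CPM and Pcsk7 between 32.1 and 54.7 CPM, and Tagln had means of 1600, 747 and 1620 CPM in acute 24 h, acute 72 h and chronic 24 h libraries. In healthy libraries Tagln had a mean of 131 CPM, Gm48529 39.5 CPM and Pcsk7 42.3 CPM, and in chronic 72 h libraries 86, 23.2 and 32.1 CPM. The part of shared reads in the level of Tagln was not tested.

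The calponins, which bind actin and damp the myosin motor, differed in level and in time course. Cnn2 (chromosome 10, 79988584 to 79996062), the calponin of non-muscle cells, read 170 to 260 CPM in healthy, 638 to 753 CPM in acute 24 h, 266 to 479 CPM in acute 72 h and 169 to 195 CPM in acute 7 d libraries. It read 269, 480, 639 and 760 CPM in chronic 24 h, 98.3 to 189 CPM in chronic 72 h and 96.8 to 177 CPM in chronic 14 d libraries, so that its highest group was acute 24 h. Cnn1 (chromosome 9, 22099216 to 22109630), the calponin of differentiated smooth muscle, was close to the limit of detection, with 3, 3, 5 and 10 counts in healthy, 4, 6 and 0 counts in acute 24 h, and 13, 29, 11 and 21 counts in acute 72 h libraries. In chronic 24 h it had 8, 48, 40 and 132 counts, and in chronic 72 h 0, 0, 0 and 9 counts. It had 7 to 19 counts in acute 7 d and 0 to 4 counts in chronic 14 d libraries. Cnn1 passed the filter through the groups in which it is higher, its fitted changes rest on few reads and depend on how counts near 0 are treated, and at its peak it reached 5.22 CPM (SD 3.90, n = 4), against 537 CPM for Cnn2 in the same libraries.

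The tropomyosins, which run along the actin filament and gate its access to myosin, and leiomodin were raised by injury for different lengths of time. Tpm1 (chromosome 9, 67022590 to 67049406) read 146 to 190 CPM in healthy, 583 to 663 CPM in acute 24 h, 817 to 1100 CPM in acute 72 h and 342 to 422 CPM in acute 7 d libraries, each group above the one before except for the last. In chronic 24 h it read 694, 134, 1540 and 1720 CPM, and replicate 2, at 134 CPM, lay below all healthy libraries while its Acta2 level was 1010 CPM. Without that replicate the mean of Tpm1 in chronic 24 h was 1320 CPM ± 548 (SD, n = 3) in place of 1020 CPM. In chronic 72 h Tpm1 read 293 to 478 CPM and in chronic 14 d 203 to 269 CPM, both above the healthy libraries without overlap. Tpm2 (chromosome 4, 43514711 to 43523765), the tropomyosin of smooth and slow muscle, was less abundant and read 5.48 to 15.4 CPM in healthy, 48.9 to 118 CPM in acute 24 h, 32.6 to 58.4 CPM in acute 72 h and 10.2 to 17.3 CPM in acute 7 d libraries. It read 17.3, 38.5, 115 and 150 CPM in chronic 24 h, and 8.10 to 14.3 CPM in chronic 72 h and 5.78 to 9.35 CPM in chronic 14 d libraries, which overlapped with the healthy range. Lmod1 (chromosome 1, 135324807 to 135368065), the leiomodin of smooth muscle, which starts new actin filaments, read 2.37 to 7.13 CPM in healthy and 12.4 to 23.8 CPM in acute 24 h libraries, stayed at 13.5 to 18.7 CPM in acute 72 h and still read 8.40 to 14.2 CPM at acute 7 d. Its chronic 24 h libraries read 13.7, 29.8, 90.2 and 56.6 CPM, with both higher-depth libraries on top. It read 7.88 to 15.9 CPM in chronic 72 h libraries, above all healthy ones, and 3.17 to 9.95 CPM in chronic 14 d libraries, which overlapped with them.

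The motor itself behaved differently in its heavy and its light chain. Myh11 (chromosome 16, 14194535 to 14291372), the smooth muscle myosin heavy chain and the most specific marker of mature smooth muscle, read 9.47, 7.97, 9.84 and 3.30 CPM in healthy and 7.76, 4.24 and 8.69 CPM in acute 24 h libraries, which overlapped. It read 20.2 to 26.2 CPM in acute 72 h, 4.98 to 11.9 CPM in acute 7 d, and 10.5, 31.3, 68.9 and 96.5 CPM in chronic 24 h libraries. Chronic 72 h (7.67 to 19.6 CPM) and chronic 14 d (8.55 to 14.1 CPM) overlapped with healthy. Myl9 (chromosome 2, 156775420 to 156781658), the regulatory light chain that myosin light chain kinase phosphorylates in smooth muscle, instead peaked in acute 24 h at 223, 717 and 579 CPM against 80.9, 165, 72.6 and 107 CPM in healthy libraries. It read 54.3, 460, 286 and 295 CPM in chronic 24 h, where replicate 1 lay below the healthy libraries. It read 171 to 238 CPM in acute 72 h libraries, above all healthy ones, and 42.4 to 74.8 CPM in acute 7 d, 30.7 to 86.7 CPM in chronic 72 h and 23.9 to 103 CPM in chronic 14 d libraries, which overlapped with the healthy range.

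Des (chromosome 1, 75360329 to 75368579), the gene of the muscle intermediate filament protein desmin, was the steadiest member. It read 415 to 565 CPM in healthy, 816, 976 and 941 CPM in acute 24 h, 534 to 832 CPM in acute 72 h, and 615 to 820 CPM in chronic 24 h libraries. Its levels at the late times, 255 to 397 CPM in acute 7 d and 257 to 358 CPM in chronic 72 h, lay below all healthy libraries, and those of chronic 14 d, 333 to 487 CPM, overlapped with them. Des exons share 220 of 3754 bases with the antisense gene Gm15179, which had a mean of 2.58 CPM or less in every group.

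Per kb of exon, counted over the exons of all isoforms, the order of the members by mean changed with injury. In healthy libraries Des led (136 CPM per kb ± 17.4 SD, n = 4), before Cnn2 (93.0), Myl9 (91.5) and Tagln (66.1), whereas Acta2 stood at 1.34 and Myh11 at 1.01 CPM per kb. In acute 24 h libraries Tagln led (803 CPM per kb ± 114 SD, n = 3), and Acta2 stood in place 5 at 101 CPM per kb, close to Tpm1 (94.6). In chronic 24 h libraries Tagln (817 CPM per kb ± 499 SD, n = 4) and Acta2 (668 CPM per kb ± 457 SD, n = 4) led, and their values overlapped. Des led again in acute 7 d (89.5 CPM per kb), chronic 72 h (78.9 CPM per kb) and chronic 14 d libraries (105 CPM per kb). Myh11 and Cnn1 held the last 2 places by mean among the members in all groups, also where Acta2 was high. In healthy libraries Lmod1 (1.08 CPM per kb ± 0.549 SD, n = 4) was not clearly apart from Myh11.

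Within each protein family, the smooth muscle form was set beside its close relatives as a share of the summed CPM per kb. These relatives share sequence, so reads may be split between them by the authors' counting. Acta2 made up 0.213% ± 0.189 (SD, n = 4) of actin in healthy, 6.14% ± 1.44 (SD, n = 3) in acute 24 h, 12.2% ± 4.94 (SD, n = 4) in acute 72 h and 28.1% ± 14.6 (SD, n = 4) in chronic 24 h libraries, where single libraries ranged from 8.15% to 39.6%. Beta-actin (Actb) kept the larger part throughout, with 64.7% in chronic 24 h and 73.4% in healthy libraries. Tagln went from 23.4% of the 2 transgelins in healthy to 71.3% in acute 24 h and 57.1% in chronic 24 h libraries. Myl9 went from 21.9% of the regulatory light chains to 52.8% in acute 24 h. By contrast, Tpm4 remained the main tropomyosin on this scale, with group means between 71.0% and 84.6%. Tpm1 had its largest mean share in chronic 72 h libraries (22.2% ± 1.86 SD, n = 4, against 9% ± 1.03 SD, n = 4 in healthy). In chronic 24 h its share was 15.5% ± 8.62 (SD, n = 4), with single libraries from 2.79% to 22%. The scale divides by the exons of all isoforms, 6485 bases for Tpm1. In CPM alone, Tpm1 and Tpm4 had means of 377 and 407 in chronic 72 h libraries. Myh11 never exceeded a group mean of 7.98% of the 4 myosin heavy chains, and non-muscle Myh9 held between 70.0% and 90.6%. Desmin was 56.5% of the 4 intermediate filament genes in healthy and 36.6% in acute 7 d libraries, where vimentin (Vim) held 55.5%. These shares are a description and carry no test.

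**Figure D2:**
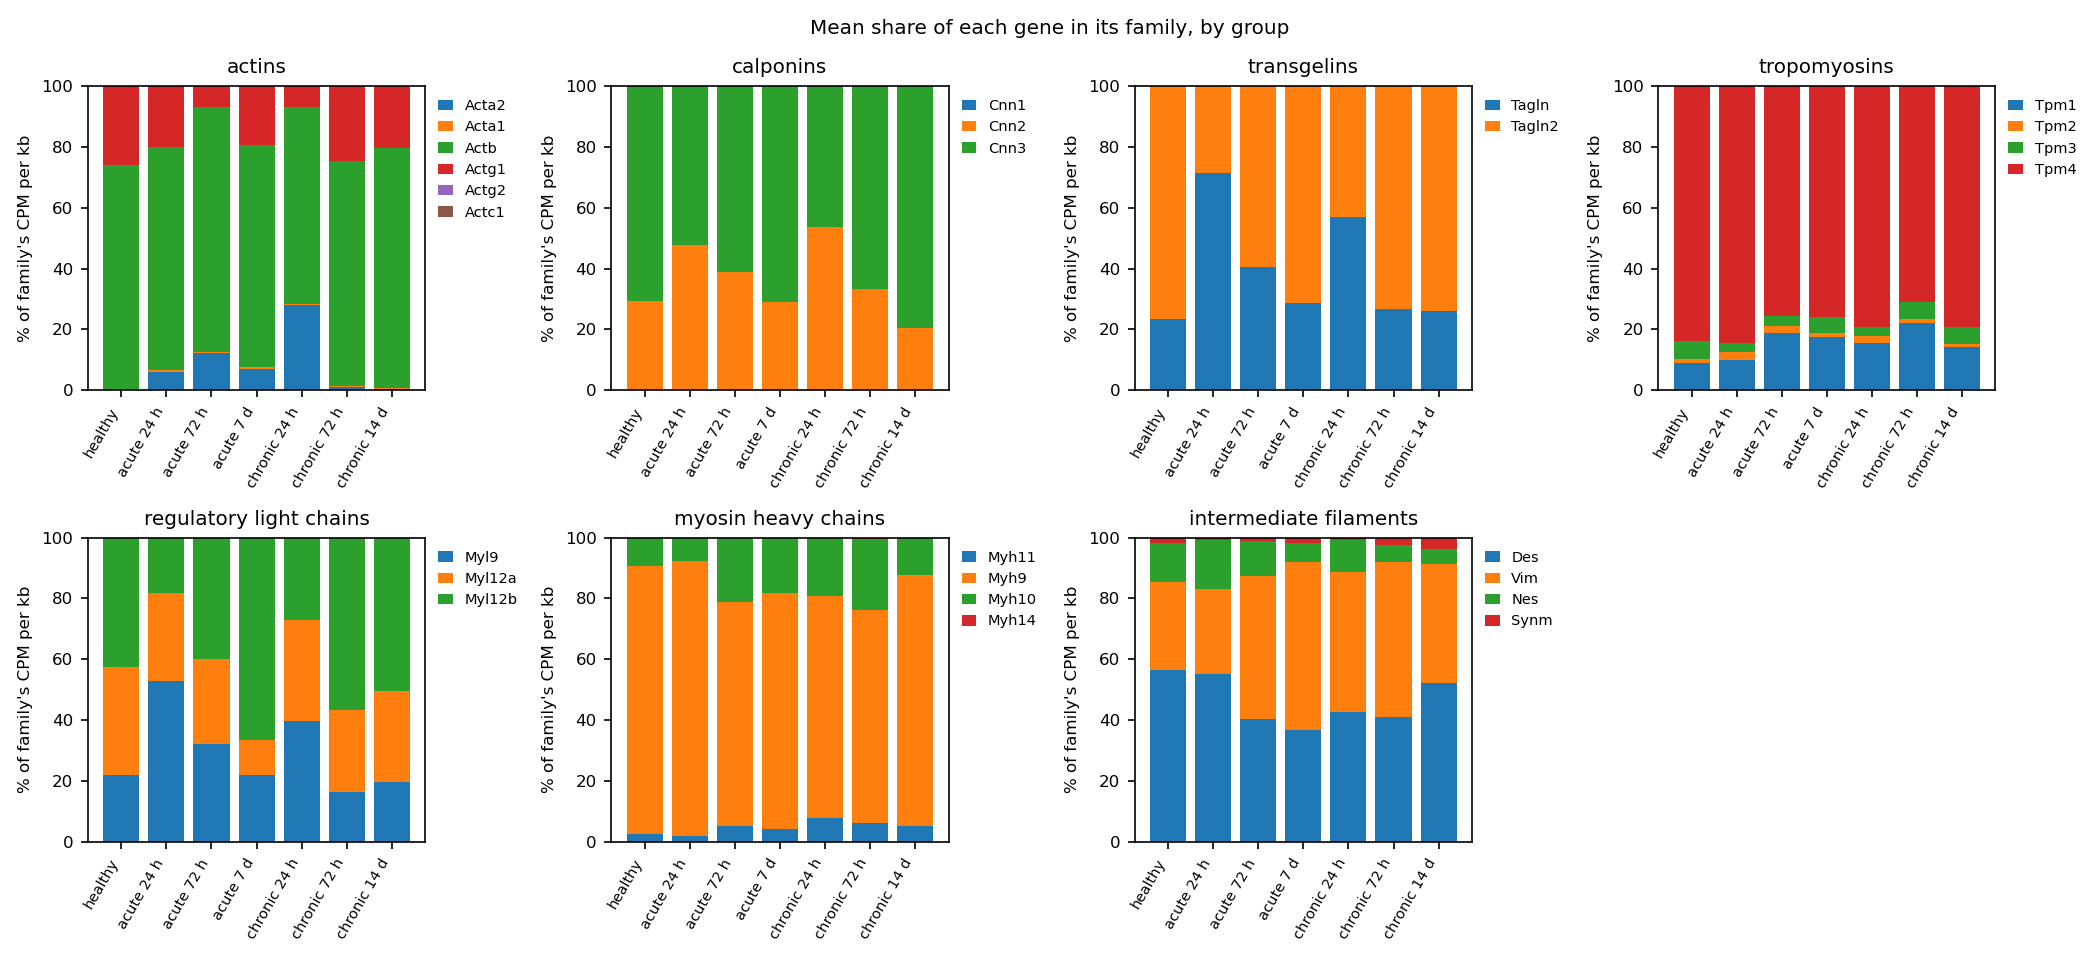
Mean share of each gene in the summed CPM per kb of its protein family, in percent, by group, in 7 panels of stacked bars. Acta2 goes from 0.213% of actin in healthy to 28.1% in chronic 24 h libraries, Tagln from 23.4% to 71.3% of the transgelins in acute 24 h, and Myh11 stays at 7.98% or less.

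The first question was how a single injury changed the contractile genes. At acute 24 h, 7 of the 10 members were called higher than in healthy libraries and none lower, where 9.41% of all genes tested were called higher and 12.5% lower. These were Acta2 (log2 fold change 6.22, SE 0.88, adjusted p 1.12e-05), Tagln (3.61, SE 0.52), Tpm2 (2.95, SE 0.49), Myl9 (2.26, SE 0.54), Lmod1 (1.97, SE 0.48), Tpm1 (1.86, SE 0.43) and Cnn2 (1.58, SE 0.29). The median log2 fold change was 1.91 over the members and -0.12 over all genes tested. Des passed the adjusted p but not the fold (log2 fold change 0.85, SE 0.18, adjusted p 0.000849). Myh11 (log2 fold change -0.14, 95% interval -1.18 to 0.90) and Cnn1 (-0.65, 95% interval -2.84 to 1.54, on few counts) were not called. Other smooth muscle forms, Lmod1 and Tpm2, were among the 7 called higher. All 7 members stayed called when any single library was left out. At this time hepatocyte markers were at their lowest, 54.4 to 258 CPM in sum against 462 to 2710 CPM in healthy libraries.

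At acute 72 h, 6 members were called higher and none lower, where 8.23% of all genes were called higher and 4.33% lower. Acta2 (log2 fold change 6.76, SE 0.89, adjusted p 9.79e-06), Tagln (2.40), Tpm1 (2.30), Tpm2 (2.15) and Lmod1 (1.84) were joined by Myh11 (1.48, SE 0.46, adjusted p 0.0243), and Cnn2 (0.60) and Myl9 (0.78) were not called. The call of Myh11 was lost without healthy replicate 2 or 4. At acute 7 d the members had parted. Of them 2 were called higher and none lower, where 9.23% of all genes were called higher and 5.64% lower, namely Acta2 (5.13, SE 0.83, adjusted p 9.31e-05) and Lmod1 (1.31, SE 0.45, adjusted p 0.0386). Acta2 was still 35.1-fold above healthy when Tagln stood at a log2 fold change of 0.02 (95% interval -0.92 to 0.97). Des was lower than in healthy libraries by less than 2-fold (-0.70, SE 0.17, adjusted p 0.00406). The median of the members was 0.20, and that of all genes 0.01. The call of Lmod1 was lost, leaving 1 member, without any of healthy replicates 1, 3 and 4 or acute 7 d replicates 2 and 3.

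The step from acute 24 h to acute 72 h moved 2 members past the threshold, in opposite directions. Myh11 rose (log2 fold change 1.62, SE 0.52, adjusted p 0.0249), where 11.2% of all genes were called higher, and Myl9 fell (-1.48, SE 0.53, adjusted p 0.0474), where 3.76% were called lower. Cnn2 (-0.99, adjusted p 0.0155) and Des (-0.56, adjusted p 0.0285) passed the adjusted p with less than a 2-fold change, and Acta2 (0.54, 95% interval -0.99 to 2.07) was not called. Both calls depended on single libraries. Myh11 and Myl9 lost their calls without acute 24 h replicate 2, Myh11 also without acute 24 h replicate 1, and Myl9 also without acute 24 h replicate 3 or any 1 of the acute 72 h libraries. From acute 72 h to acute 7 d, 5 members were called lower (Tagln, Cnn2, Myl9, Tpm1 and Tpm2), where 2.73% of all genes were, with log2 fold changes between -2.38 for Tagln and -1.01 for Cnn2.

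The chronic course was followed in the same way. At chronic 24 h, 9 members were called higher than in healthy libraries and none lower, where 11.2% of all genes were called higher and 8.11% lower. Acta2 led (log2 fold change 8.94, SE 0.97, adjusted p 3.28e-07, that is 490-fold), before Tagln (3.62, SE 0.51), Lmod1 (3.49, SE 0.48), Tpm2 (2.93, SE 0.48), Myh11 (2.76, SE 0.48), Tpm1 (2.59, SE 0.42), Myl9 (1.36, SE 0.50, adjusted p 0.0433) and Cnn2 (1.22, SE 0.28). Cnn1 was called too, on 3 to 10 counts in healthy and 8 to 132 counts in chronic 24 h libraries, which are too few to rank its change, and without it 8 of 9 members were called. The median was 2.85 over the members (2.76 without Cnn1) and -0.03 over all genes. Des was not called (0.41, adjusted p 0.0719). Myl9 lost its call without any of healthy replicates 1, 3 and 4 or chronic 24 h replicates 2, 3 and 4, which left 8 members. All 9 were called among libraries of higher depth alone, which keeps replicates 3 and 4 of chronic 24 h, those with its highest Acta2.

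By 72 h after the last injection these levels had fallen back. At chronic 72 h no member was called against healthy by edgeR, where 7.88% of all genes were called higher and 4.2% lower, and 6 members had an unadjusted p below 0.05. Of these, Cnn2 (log2 fold change -0.89, SE 0.27, adjusted p 0.0230) and Des (-0.91, SE 0.17, adjusted p 0.000499) passed the adjusted p and lay below healthy by less than 2-fold. Acta2 (1.85, SE 0.75, adjusted p 0.0848), Lmod1 (1.19, adjusted p 0.0675) and Tpm1 (1.04, adjusted p 0.0694) were positive and Myl9 (-1.21, adjusted p 0.0943) negative. DESeq2 called 3 members higher, Acta2, Tpm1 and Lmod1. Chronic 72 h replicate 4 stood apart with 31.4 CPM of Acta2, 173 CPM of Tagln and 9 counts of Cnn1. Without it 3 members were called lower, Tagln, Cnn1 and Cnn2, while Acta2 had a mean of 4.48 CPM ± 2.04 (SD, n = 3). Cnn1 then had no count in any chronic 72 h library, and few in healthy ones, so its call carries little weight. The shares of all genes given above are for the fit of all libraries. Leaving out any of 5 other libraries gave 1 call, of Acta2 (higher; without healthy replicate 4 or chronic 72 h replicate 3), Lmod1 (higher; healthy replicate 2), Cnn2 (lower; healthy replicate 1) or Myl9 (lower; chronic 72 h replicate 1). At chronic 14 d no member was called by edgeR or DESeq2, where 4.55% of all genes were called higher and 1.17% lower by edgeR, and 2 members, Cnn2 (-0.97, adjusted p 0.0291) and Des (-0.55, adjusted p 0.0467), had an unadjusted p below 0.05. Cnn2 passed 2-fold without healthy replicate 1 or chronic 14 d replicate 1. Since each chronic 14 d library fell in the lower depth class and each healthy one in the higher, depth and group cannot be told apart within this pair. Hepatocyte markers summed to 1860 to 3480 CPM at chronic 72 h and to 1660 to 7270 CPM at chronic 14 d, and their part in these values was not tested.

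The comparisons against healthy libraries share those libraries as controls, and the direct contrasts do not need them. From chronic 24 h to chronic 72 h all 10 members were called lower, where 3.65% of all genes were called lower and 4.72% higher. The fall was largest in Acta2 (log2 fold change -7.09, SE 0.89, adjusted p 1.20e-05, that is 136-fold lower), Tagln (-4.33, SE 0.52) and Tpm2 (-3.07, SE 0.48). It was smallest in Tpm1 (-1.55, SE 0.40, adjusted p 0.0104) and Des (-1.31, SE 0.17, adjusted p 1.79e-05). Cnn1 was called with no count in 3 of the chronic 72 h libraries, so its size is not ranked, and without it 9 of 9 members were called. The median was -2.43 over the members (-2.29 without Cnn1) and 0.00 over all genes. Without chronic 24 h replicate 4, Tpm1 lost its call and 9 members were left. All 10 were called among libraries of higher depth alone, which keeps only replicates 3 and 4 of each group. From chronic 24 h to chronic 14 d, 9 members (8 of 9 without Cnn1) were called lower and none higher, where 6.11% of all genes were called lower and 6.65% higher, with a range from -8.27 (SE 0.94) in Acta2 to -2.19 (SE 0.28) in Cnn2, and Des fell by 0.95 on the log2 scale (adjusted p 0.000297), under the 2-fold limit. Between chronic 72 h and chronic 14 d the members differed by log2 fold changes from -1.18 (Acta2) to 0.36 (Des), with adjusted p of 0.335 or more in edgeR.

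**Figure D3:**
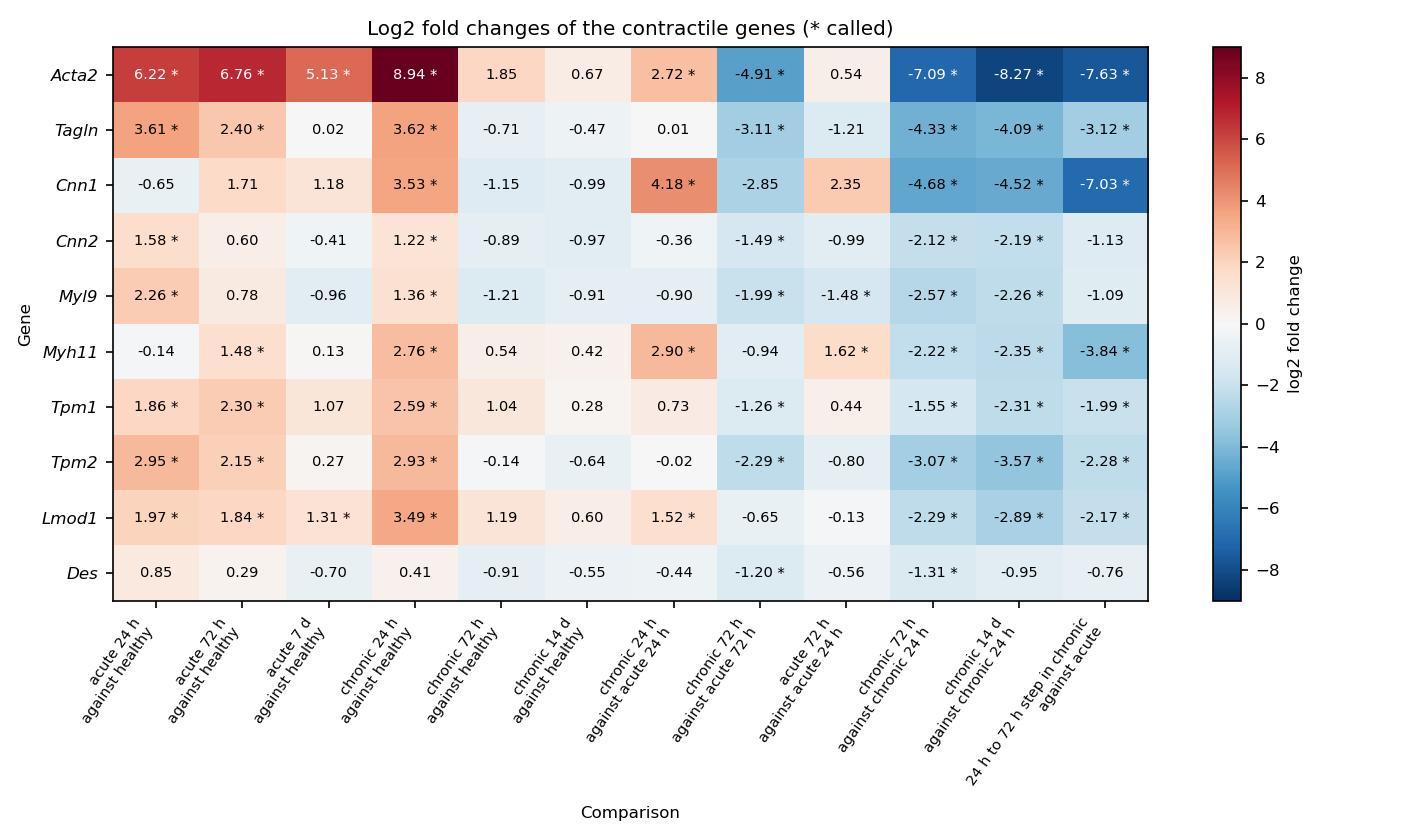
Log2 fold change of each gene (rows) in each comparison (columns), coloured from blue (lower) to red (higher), with the value in each cell and an asterisk where the gene was called. Values of Cnn1 rest on few counts. The last column is the difference between the 24 h to 72 h steps, chronic minus acute. Chronic 24 h against healthy carries 9 called genes, and the columns of chronic 72 h and chronic 14 d against healthy carry none.

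Repeated and single injury were compared directly at matched times. At 24 h, 4 members were higher in chronic than in acute libraries and none lower, where 10.9% of all genes were called higher and 3.05% lower. These were Myh11 (log2 fold change 2.90, SE 0.54, adjusted p 0.000467), Acta2 (2.72, SE 0.81, adjusted p 0.0183), Lmod1 (1.52, SE 0.49, adjusted p 0.0277) and Cnn1. The call of Cnn1 rests on 4, 6 and 0 counts in acute 24 h libraries, and without it 3 of 9 members were called. Tagln (0.01) and Tpm2 (-0.02, 95% interval -0.99 to 0.96) gave no difference that could be detected, and the values of Cnn2 (-0.36), Des (-0.44) and Myl9 (-0.90) lay below 0 without a call. The calls of Acta2 and Lmod1 were lost, leaving 2 members, without acute 24 h replicate 2 or 3 or chronic 24 h replicate 4, and Tpm1 was added, making 5, without chronic 24 h replicate 2. At 72 h the direction was the opposite: 7 members were lower in chronic than in acute libraries and none higher, where 4.01% of all genes were called lower and 5.11% higher. Acta2 had the largest difference (log2 fold change -4.91, SE 0.80, adjusted p 0.000211), followed by Tagln (-3.11, SE 0.50), Tpm2 (-2.29), Myl9 (-1.99), Cnn2 (-1.49), Tpm1 (-1.26, adjusted p 0.0354) and Des (-1.20). Lmod1 (-0.65) and Myh11 (-0.94, adjusted p 0.178) were not called, nor was Cnn1 (-2.85, adjusted p 0.0518). Tpm1 lost its call without any of 7 of the 8 libraries compared.

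The course from 24 h to 72 h was then tested as a difference of differences. This equals the chronic against acute contrast at 72 h less that at 24 h, from the same libraries, and is not separate evidence. In 7 members the step was lower after repeated than after a single injury, and in none higher, where 6.46% of all genes were called lower and 2.28% higher. The difference was -7.63 in Acta2 (SE 1.16, adjusted p 0.000178), -3.84 in Myh11 (SE 0.70, adjusted p 0.000968) and -3.12 in Tagln (SE 0.70, adjusted p 0.00501). Acta2 and Myh11 had log2 fold changes of 0.54 and 1.62 in the acute course and of -7.09 and -2.22 in the chronic one. Cnn1 was called as well, with 0 to 6 counts in acute 24 h and 0 to 9 counts in chronic 72 h libraries, and without it 6 of 9 members were called. The differences of Tpm2 (-2.28, adjusted p 0.0284), Lmod1 (-2.17, adjusted p 0.0345) and Tpm1 (-1.99, adjusted p 0.0316) were lost together, leaving 4 members, without acute 24 h replicate 3, acute 72 h replicate 3 or 4, chronic 24 h replicate 3 or 4, or chronic 72 h replicate 1, 2 or 3. Cnn2 (-1.13), Myl9 (-1.09, 95% interval -2.61 to 0.43) and Des (-0.76) were not called, and their log2 fold changes were negative in both courses. The median difference was -2.22 over the members (-2.17 without Cnn1) and -0.09 over all genes.

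**Figure D4:**
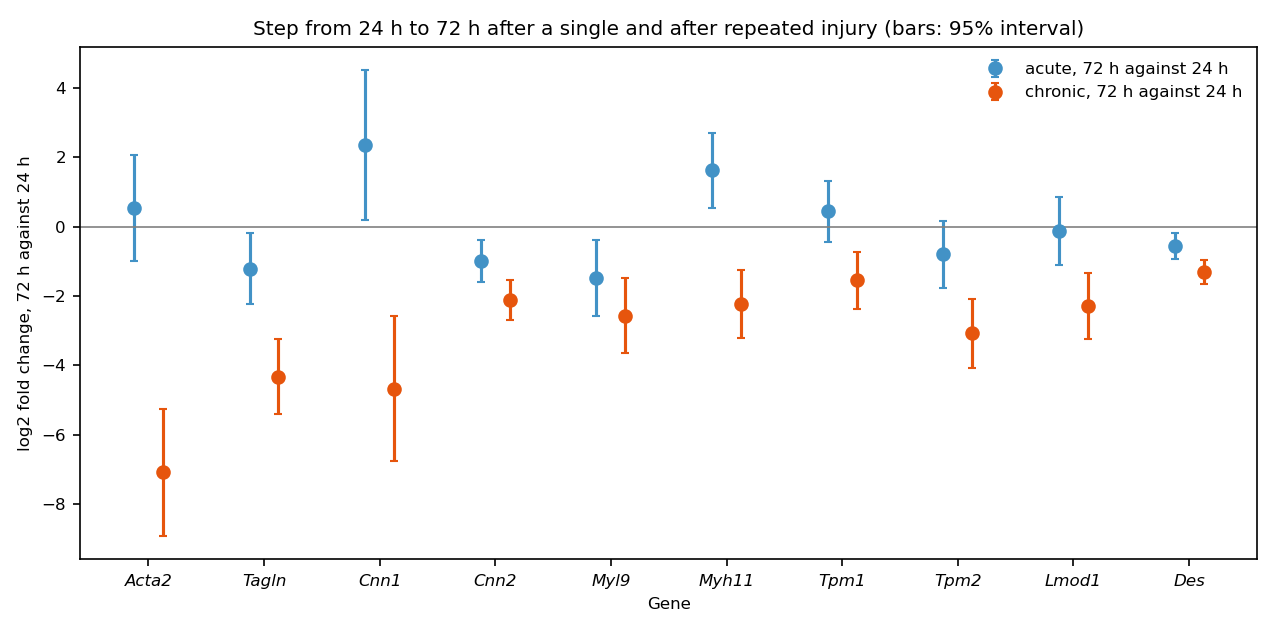
Log2 fold change from 24 h to 72 h of the 10 contractile genes after a single injection (blue) and after the chronic course (orange), with 95% intervals. The chronic values lie below 0 for all 10 genes, from -7.09 in Acta2 to -1.31 in Des, and the acute values lie on both sides of 0.

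The members did not move as a single block across libraries. Over the 27 libraries, Pearson correlations of log2 CPM between members ranged from 0.94 for Tagln and Cnn2 to 0.33 for Myh11 and Des. Tagln with Tpm2 (0.93), Cnn2 with Tpm2 (0.90), Cnn2 with Des (0.88) and Cnn2 with Myl9 (0.87) came next, and Lmod1 was closest to Acta2 (0.86). After the group means were subtracted, Acta2 kept correlations of 0.72 with Cnn2, 0.68 with Tagln, 0.66 with Lmod1, 0.59 with Tpm2 and 0.51 with Myl9. They were lower with Tpm1 (0.34), Myh11 (0.24) and Des (0.05). The value for Cnn1 was 0.75 but rests on counts near 0 in most groups. All are over the same libraries, with depth shared by all genes of a library. Among 10292 other genes whose mean log2 CPM reached 3 or more, those most like Acta2 by Pearson correlation over the 27 libraries were Cdh3 (0.96), Anxa3 (0.95), Lgals1 (0.93), Ckap4 (0.93) and Kdelr3 (0.93). Lmod1, the nearest member, came at rank 61, and Tpm2 and Tagln at 104 and 108. By Spearman correlation Cdh3 (0.92) also came first and the other 4 fell outside the first 5. On that measure Lmod1 (0.89) came at rank 12, and Tpm2 and Tagln at 102.5 and 142.5.

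Close relatives of the members, which serve the same functions in other muscles or in non-muscle cells, were read beside them. Of 20 such paralogs, 17 could be tested. At chronic 24 h 8 were called higher than in healthy libraries (Acta1, Actb, Actg2, Tagln2, Tpm4, Myh10, Myl6 and Vim) and none lower, with a median log2 fold change of 0.66, where 11.2% of all genes were called higher. From chronic 24 h to chronic 72 h 11 were called lower, where 3.65% of all genes were, with a median of -1.33. Tpm4, the tropomyosin of non-muscle cells, rose at chronic 24 h, with a mean of 1710 CPM (SD 723) against 546 CPM (SD 126) in healthy libraries (n = 4 each, log2 fold change 1.64, SE 0.24, adjusted p 1.12e-05). Actg2, the gamma-actin of visceral smooth muscle, reached 4.41 CPM ± 3.25 (SD, n = 4) in chronic 24 h libraries and was at 0 in all acute 7 d, chronic 72 h and chronic 14 d libraries. Myh10, a non-muscle myosin, was, as Myh11 was, higher at chronic 24 h than at acute 24 h (2.05, SE 0.34, adjusted p 0.000137). It was the 1 paralog of 17 called there, where 10.9% of all genes were called higher, and the median of the paralogs was -0.13.

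SRF and the genes that work with it were taken as another list. Of 10 genes, 9 could be tested. At acute 24 h 4 were called higher than in healthy libraries (Srf, Csrp1, Csrp2 and Fhl2), where 9.41% of all genes were, and at chronic 24 h 3 (Csrp1, Csrp2 and Fhl2), where 11.2% of all genes were. The medians of the list were 0.34 and 0.15. Myocd, the smooth muscle coactivator, did not pass the filter with group means of at most 0.325 CPM. Srf itself was called higher at acute 24 h alone among the comparisons with healthy (log2 fold change 1.21, SE 0.20, adjusted p 6.37e-05), at 148 CPM ± 14.3 (SD, n = 3) against 64.1 CPM ± 6.12 (SD, n = 4). At chronic 24 h, where Acta2 was highest, Srf stood at 99.9 CPM ± 23.6 (SD, n = 4) and passed the adjusted p but not the fold (0.64, adjusted p 0.0123). Csrp2 and Fhl2, LIM proteins of muscle and SRF partners, were called higher than healthy in 5 and 6 of the 6 injury groups. Fhl2 did not follow Acta2 down after the chronic course: it read 130 CPM ± 89.0 (SD, n = 4) at chronic 24 h and 141 CPM ± 84.2 (SD, n = 4) at chronic 72 h (log2 fold change 0.02, SE 0.42), and then 19.5 CPM ± 5.65 (SD, n = 4) at chronic 14 d.

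Genes that control contraction, such as kinases, phosphatase subunits, receptors and ion channels, were taken as a further list. Of 17 genes, 2 were called higher and 2 lower at chronic 24 h against healthy, with a median log2 fold change of -0.19, where 11.2% of all genes were called higher and 8.11% lower, so the count was close to that over all genes. The 2 called higher were Cacna1c, the L-type calcium channel (mean 13.5 CPM, SD 2.64, against 2.31 CPM, SD 1.43), and Kcnmb1, the beta subunit of the BK potassium channel (mean 8.37 CPM, SD 5.24, against 0.797 CPM, SD 0.546). Cacna1c was also higher at chronic than at acute 24 h (1.70, SE 0.42, adjusted p 0.00547) and its step to 72 h differed between the courses (-2.02, SE 0.56, adjusted p 0.0219). Prkg1, the cyclic GMP-dependent kinase that relaxes smooth muscle, was called lower in acute 24 h, acute 7 d, chronic 24 h and chronic 72 h, with a mean of 34.4 CPM (SD 7.39) among healthy and 14.3 CPM (SD 2.89) among chronic 24 h libraries. Smtn, the smoothelin of contractile smooth muscle, was called lower in acute 72 h, acute 7 d, chronic 72 h and chronic 14 d, with a mean of 436 CPM (SD 69.3) among healthy and 150 CPM (SD 26.2) among acute 7 d libraries. Of 10 genes that anchor actin to adhesions and to the Z-disc-like dense bodies, 3 rose at chronic 24 h against healthy (Actn1, Pdlim3 and Pdlim7), where 11.2% of all genes did. From there to chronic 72 h 6 fell, where 3.65% of all genes did, and Actn1 was also called higher at both acute 24 h and acute 72 h.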

How the data were processed

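HSC RNA was measured by single-end RNA sequencing in 27 libraries of 7 groups. The authors state read checks by FastQC, alignment to GRCm38.p6 by STAR and further processing by StringTie. The deposited values are whole-number counts per Ensembl gene, with no normalization. Tool versions, the annotation, the strand setting and the counting step are not given in the sources used here. The member genes and the other lists were chosen with earlier results of these data known.

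Counts were tested in edgeR 4.0.16 (R 4.3.3) with 1 quasi-likelihood fit of all 27 libraries, after filterByExpr by group (18758 of 53379 genes kept) and TMM scaling. Calls required a change above 2-fold and an adjusted p (Benjamini-Hochberg, over all genes tested) below 0.05. Error ranges of log2 fold changes are 95% intervals of this fit. Library totals of 6.31 M to 13.1 M limit precision, which is lowest for Cnn1. P-values measure the spread between libraries, which were separate experiments per the methods of the study. Levels are CPM of the total count. CPM per kb used the exon union of GENCODE M21, which held 53274 of the gene IDs. Likeness to Acta2 was the Pearson correlation of log2 CPM (prior count 2). DESeq2 1.42.0, other scalings, filters and thresholds, the replicate block, depth class and omission of each library were alternatives. The fit was tested on simulated data. Promoter windows came from RefSeq (GRCm38.p6). Genes were named if they were among the 10 members, if a result turned on them within the lists of paralogs, SRF regulators, contraction control or actin anchoring, or if they were the 5 most like Acta2.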

Additional observations from a re-analysis of the deposited data

Results flagged for a closer look

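Of 60 member and group combinations with 4 libraries, 7 held a library that stood apart from the rest by Dixon's ratio. Its nominal rate of about 1 in 20 is for independent groups. The combinations share libraries, so their count cannot be set against that rate. Chronic 72 h replicate 4 was the highest of its group in Acta2 (31.4 CPM), Tagln (173 CPM) and Cnn1 (0.691 CPM, with no count in the rest of the group, so that any count would be flagged). Acute 72 h replicate 2 was highest in Acta2 (631 CPM) and Tpm1 (1100 CPM), and acute 72 h replicate 1 was lowest in Tpm2 (32.6 CPM). Chronic 14 d replicate 2 was highest in Tagln (141 CPM). Without these libraries, the group means were 4.48 CPM for Acta2 and 57.1 CPM for Tagln in chronic 72 h, 254 CPM for Acta2, 835 CPM for Tpm1 and 56.4 CPM for Tpm2 in acute 72 h, and 95.3 CPM for Tagln in chronic 14 d.

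The change from 24 h to 72 h differed between the chronic and the acute course in 7 members, by the edgeR test of the difference already given above. The log2 difference, chronic minus acute, was -7.63 in Acta2, -3.84 in Myh11, -3.12 in Tagln, -2.28 in Tpm2, -2.17 in Lmod1 and -1.99 in Tpm1. In Cnn1 it was -7.03, fitted with 0 to 6 counts in acute 24 h and 0 to 9 counts in chronic 72 h libraries, and its size depends on how counts near 0 are treated.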

How the results depend on the processing

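Of 230 recomputed counts of called members, 186 stayed within 1.5 times the reported count and 44 did not. Of 2295 recomputed single values, 2129 kept their side of the threshold, 91 lost a call, 70 gained one and 5 changed sign by at least the SE of the reported value. Smaller changes of sign in values without a call were counted among the 2129. With no filter on low counts, 1 member was called at acute 7 d against healthy, 2 at chronic against acute 24 h, 1 from acute 24 h to 72 h and 4 in the difference of steps. For chronic 72 h against healthy, where 0 were called, library size alone gave 2, an adjusted p below 0.1 gave 4, no minimum fold 2, depth class as a term 3, libraries of higher depth 4, only the groups compared 1 and DESeq2 3. For chronic 14 d against healthy, no minimum fold gave 2 and depth class as a term 1. From acute 24 h to 72 h, library size alone gave 1, no minimum fold 4 and libraries of higher depth 4. Fitting only the groups compared gave 4 for the difference of steps. Library size alone moved the median of all genes by up to 0.174 (log2, chronic 14 d against healthy). With depth class as a term, the log2 fold changes of Tpm2 at chronic 72 h (0.56) and of Tagln (0.76), Cnn1 (0.45) and Tpm2 (0.72) at chronic 14 d against healthy turned positive, and among libraries of higher depth that of Tpm2 at chronic against acute 24 h was 0.68, none of them called. The cause was not tested. Libraries of higher depth gave no value for chronic 14 d, which has none.

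Leaving out 1 library at a time, the members called numbered 7 to 7 at acute 24 h, 5 to 6 at acute 72 h, 1 to 2 at acute 7 d, 8 to 9 at chronic 24 h, 0 to 3 at chronic 72 h and 0 to 1 at chronic 14 d against healthy. They numbered 2 to 5 for chronic against acute 24 h, 6 to 8 for chronic against acute 72 h, 0 to 3 from acute 24 h to 72 h, 9 to 10 from chronic 24 h to 72 h and to 14 d, and 4 to 8 for the difference of steps. An arm of 2 libraries then relied on the spread pooled over all groups.

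No clear pairing by replicate number was seen: correlations of same-numbered deviations lay between -0.18 and 0.18, and in 0 of 21 pairs of groups were all above 0.1. They were 0.09 to 0.13 between chronic 24 h and chronic 72 h, whose same-numbered libraries share a depth class. Between acute 7 d and chronic 14 d they were -0.12 to -0.06. A weak pairing is too small for this check to exclude. With the replicate number as a block, 8 members were called at chronic 24 h against healthy, 3 at chronic against acute 24 h, 8 at chronic against acute 72 h and 5 in the difference of steps. The other counts were as without the block (7, 6, 2, 0, 0, 2, 10 and 9), although from acute 24 h to 72 h Cnn2 took the place of Myl9.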

Other observations

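Tpm1 and Acta2 parted in 1 library. Chronic 24 h replicate 2 read 134 CPM of Tpm1, below all 4 healthy libraries, beside 1010 CPM of Acta2 and 1460 CPM of Tagln. In the same group Myl9 read 54.3 CPM in replicate 1 and 460 CPM in replicate 2. The means without those libraries were 1320 CPM for Tpm1 and 347 CPM for Myl9.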
